A study of Mus musculus with 24 samples.

Results

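Neb, Ryr1 and Jph2 are 3 genes best known from striated muscle, followed here in the mouse pituitary. They were chosen by their lower read counts in libraries that carry Cre, so their values with and without Cre are given as a description, with no test. They are 3 of the 35191 genes in the count table, and all 3 passed the filter on low counts that left 21927 genes for testing. The study sequenced polyA RNA from pituitaries of both sexes to ask about sex differences with and without a conditional knockout of Egr1, an immediate early zinc-finger transcription factor. Each of 8 groups had 3 libraries. Wild type mice are labelled wt (-), Cre controls wt (+), Egr1cKO controls FF (-) and Egr1cKO mice FF (+), each in males and females. The titles name these genotypes, and they are read here as neither Cre nor floxed Egr1, Cre alone, floxed Egr1 alone, and floxed Egr1 with Cre. No source used here names the Cre driver, the strain, the age or the number of mice per library. The tissue is labelled pituitary in all 24 libraries, and Gh and Prl, which encode growth hormone and prolactin, were detected in all 24.

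Nebulin, the product of Neb, is a very large protein that runs along the thin actin filaments of the skeletal muscle sarcomere. The ryanodine receptor encoded by Ryr1 is the calcium release channel of the sarcoplasmic reticulum and opens in excitation-contraction coupling. Junctophilin 2, encoded by Jph2, tethers the plasma membrane to the endoplasmic or sarcoplasmic reticulum, and so brings surface calcium channels close to ryanodine receptors. The pituitary is not a muscle, but its hormone cells are electrically excitable and release hormone on a rise in calcium.

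All 3 genes lie on the minus strand of GRCm38. Neb (ENSMUSG00000026950) spans chr2:52136647-52378474, with 26.6 kb of exon in the GENCODE M21 annotation. Ryr1 (ENSMUSG00000030592) spans chr7:29003344-29125179, with 21.8 kb of exon. Jph2 (ENSMUSG00000017817) spans chr2:163336242-163397993, with 4.25 kb of exon. Promoters are shown as a description for the genes with a start in RefSeq's table, Ryr1 and Jph2. RefSeq's table for GRCm38.p6 gave 1 start for Ryr1 and 2 for Jph2, and Neb had no entry. The 250 bases before the Ryr1 start (chr7:29125152-29125401) and before the upstream Jph2 start (chr2:163397994-163398243) are written 5′ to 3′ on the minus strand, with capitals at the motif matches.
Ryr1: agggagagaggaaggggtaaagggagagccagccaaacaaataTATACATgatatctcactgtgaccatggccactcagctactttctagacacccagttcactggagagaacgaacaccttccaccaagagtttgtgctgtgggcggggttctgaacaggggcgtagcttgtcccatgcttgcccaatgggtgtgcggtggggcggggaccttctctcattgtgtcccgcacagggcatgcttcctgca
Jph2: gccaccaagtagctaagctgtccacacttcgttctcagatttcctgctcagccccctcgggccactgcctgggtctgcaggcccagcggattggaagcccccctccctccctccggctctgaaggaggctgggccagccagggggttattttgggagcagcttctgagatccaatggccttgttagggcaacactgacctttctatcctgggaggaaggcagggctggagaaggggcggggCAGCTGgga

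Motifs of 4 factor families were searched on both strands. The Ryr1 window held 1 match to TATNCAT, the motif used for the pituitary factor POU1F1, between 207 and 201 bases before the start. The Jph2 window held 1 match to the E-box CANNTG, the class of site that myogenic basic helix-loop-helix factors can use, between 9 and 4 bases before the start. Of 32851 promoter windows of the same length, 7.92% held the POU1F1 motif and 66.2% held an E-box. Neither window held the EGR motif GCGNGGGCG, present in 4.70% of promoters, or the MEF2 motif, present in 3.20%. The motifs do not overlap one another in these windows. The GC content was 54.8% for Ryr1 and 62% for Jph2, against a median of 52.4% over all promoters. A match is a description of these letters and not evidence that a factor binds there.

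Levels are CPM, the counts scaled to a common library total, after adjusting totals by the trimmed mean of M-values. Total counts ran from 15486069 to 26255343 per library. The mitochondrial share of counts, a common sign of RNA quality, ran from 2.08% to 10.4%. In the libraries with Cre it was 5.52% to 10.4% in females and 2.08% to 3.79% in males, so the sexes did not overlap there. Replicate 1 of the female wild type group stood apart from the other two of its group, with a share of 10.1%. Values that moved by over 1.5 times or changed their call without it are given both ways in the comparisons tested below.

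Neb was at 14.7 CPM in the mean over all 24 libraries. In wild type males it was at 20.4, 19.7 and 23.0 CPM, and in wild type females at 21.5, 23.0 and 15.1 CPM. With Cre alone it was at 2.7, 1.88 and 1.50 CPM in males and at 3.93, 5.39 and 4.39 CPM in females. No library with Cre reached any wild type library. In Egr1cKO controls Neb was at 20.9, 12.5 and 20.6 CPM in males and at 35.8, 57.6 and 36.6 CPM in females. In Egr1cKO mice it was at 1.56, 2.29 and 3.51 CPM in males and at 5.52, 8.0 and 5.14 CPM in females. The female Egr1cKO controls were above every other library, and again the libraries with Cre stayed below those without. Both are descriptions.

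The mean level of Neb with Cre was 10.4-fold lower in unfloxed males, 4.34-fold lower in unfloxed females, 7.34-fold lower in floxed males and 6.97-fold lower in floxed females. The fitted difference averaged over these 4 pairs of groups was -2.79 on the log2 scale (SE 0.158). Over all 24 libraries, the highest value with Cre was 8.0 CPM and the lowest without Cre was 12.5 CPM. Of the 21927 genes tested, 19 (0.0867%) had all 12 libraries with Cre below all 12 without, and Neb was the only 1 of the 3 genes among them. As the choice of genes used this contrast, nothing is read from that count. In bulk RNA, fewer cells of a type and less RNA per cell cannot be told apart.

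In order of group means, Neb was highest in female Egr1cKO controls at 43.3 ± 12.4 CPM (SD, n = 3). Male wild type followed at 21 ± 1.74, female wild type at 19.8 ± 4.21 and male Egr1cKO controls at 18.0 ± 4.80 CPM (SD, n = 3). These lower 3 groups overlapped one another, and the female Egr1cKO controls overlapped none of them. That gap was picked out after the values were seen. The share of all genes with such a gap was not counted, so nothing is read from it. Among groups with Cre, female Egr1cKO mice were at 6.22 ± 1.55 and female Cre controls at 4.57 ± 0.748 CPM (SD, n = 3), with overlapping ranges. Male Egr1cKO mice at 2.45 ± 0.986 and male Cre controls at 2.03 ± 0.614 CPM (SD, n = 3) also overlapped. The lowest female library with Cre, at 3.93 CPM, was above the highest male one, at 3.51 CPM.

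**Figure D1:**
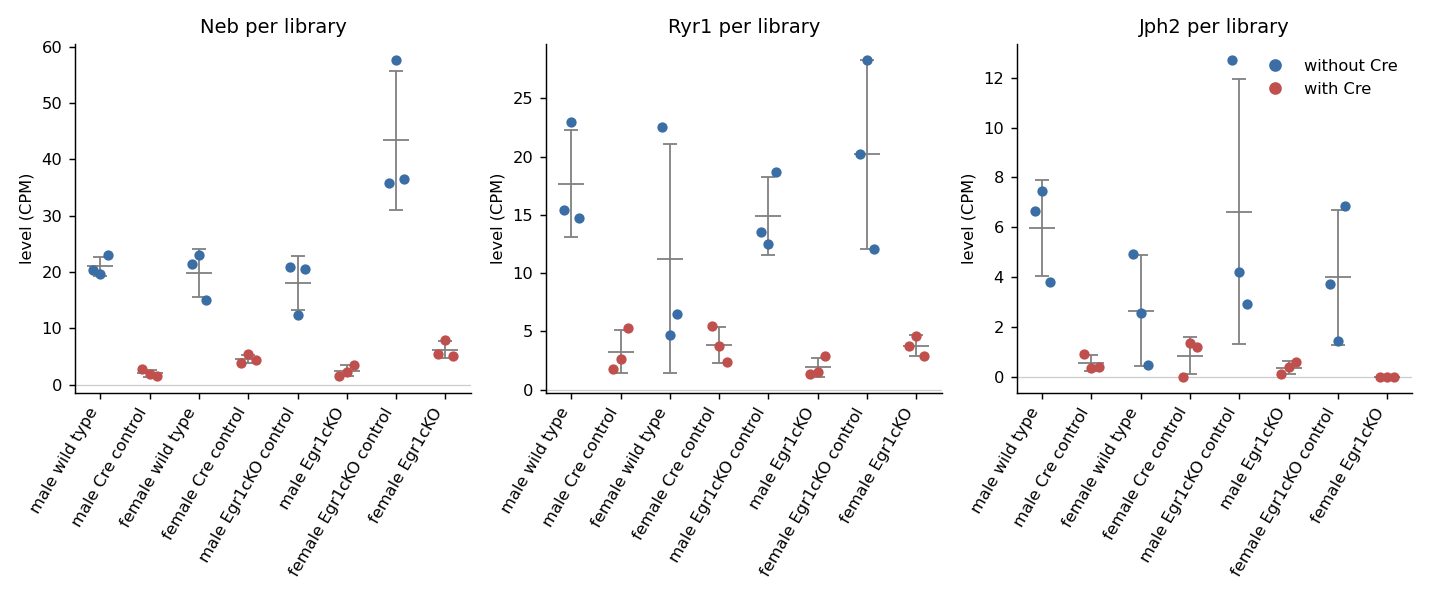
Level of Neb, Ryr1 and Jph2 in CPM (vertical axes) in each of the 24 libraries by group (horizontal axes); points are libraries, blue without Cre and red with Cre, and grey marks are the mean ± SD of 3 libraries. Neb with Cre stays at or under 8.0 CPM and without Cre at or over 12.5 CPM, while Ryr1 and Jph2 overlap in the unfloxed females.

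Ryr1 was at 15.4, 22.9 and 14.7 CPM in wild type males and at 1.80, 2.64 and 5.31 CPM in male Cre controls. In wild type females it was at 22.5, 4.71 and 6.49 CPM and in female Cre controls at 5.46, 3.70 and 2.37 CPM. The male groups did not overlap, whereas the second female wild type library fell inside the range of the female Cre controls. Among males with floxed Egr1, Ryr1 was at 13.5, 12.5 and 18.7 CPM without Cre and at 1.38, 1.53 and 2.86 CPM with it. Among females with floxed Egr1 it was at 20.2, 28.3 and 12.1 CPM without Cre and at 3.76, 4.64 and 2.85 CPM with it. Neither floxed pair overlapped, but Ryr1 was chosen by this contrast, so nothing is read from that.

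Mean Ryr1 with Cre was 5.43-fold lower in unfloxed males, 7.76-fold lower in floxed males and 5.38-fold lower in floxed females. In unfloxed females it was 2.93-fold lower, and 1.46-fold lower without female wild type replicate 1. The averaged fitted difference was -2.34 on the log2 scale (SE 0.250). Group means of Ryr1 ran from 20.2 ± 8.12 CPM in female Egr1cKO controls through 17.7 ± 4.57 in male wild type, 14.9 ± 3.34 in male Egr1cKO controls and 11.2 ± 9.81 in female wild type (SD, n = 3). The groups with Cre followed, at 3.84 ± 1.55 in female Cre controls, 3.75 ± 0.896 in female Egr1cKO mice, 3.25 ± 1.83 in male Cre controls and 1.92 ± 0.817 CPM in male Egr1cKO mice (SD, n = 3). Every pair of neighbours in this order had overlapping ranges.

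Jph2 had the fewest counts, 1320 over all libraries. It was at 6.67, 7.45 and 3.81 CPM in wild type males and at 0.901, 0.345 and 0.385 CPM in male Cre controls. In wild type females it was at 4.93, 2.54 and 0.490 CPM and in female Cre controls at 0, 1.37 and 1.19 CPM. The male groups did not overlap and the female groups did. In floxed males it was at 12.7, 4.22 and 2.93 CPM without Cre and at 0.0917, 0.404 and 0.607 CPM with it. In floxed females it was at 3.70, 1.43 and 6.84 CPM without Cre, and the 3 libraries with Cre had no count.

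The mean of Jph2 with Cre was 11-fold lower in unfloxed males, 3.12-fold lower in unfloxed females and 18.0-fold lower in floxed males. The unfloxed female value was 1.78-fold without female wild type replicate 1. In floxed females the counts were pooled over each group, which gave 4.27 CPM without Cre. With no count in the Cre group, the level there was at least 89.8-fold lower, taking 3 counts over the group (0.0475 CPM) as the floor. The count of 119 for Jph2 over the 12 libraries with Cre, against 1201 over the 12 without, limits what can be read from single libraries. This floor covers counting error alone, since the reads carry no molecular identifiers. The female Egr1cKO group also had the fewest genes detected, 19402 in the mean, against 25690 in male Egr1cKO mice. Its mitochondrial shares were 8.73% to 10.4%. The part of library quality in the absence of Jph2 counts there was not tested. Male Egr1cKO controls were highest in the mean, at 6.62 ± 5.32 CPM, followed by male wild type at 5.98 ± 1.91, female Egr1cKO controls at 3.99 ± 2.71 and female wild type at 2.66 ± 2.22 (SD, n = 3). Female Cre controls were at 0.852 ± 0.744, male Cre controls at 0.544 ± 0.310 and male Egr1cKO mice at 0.368 ± 0.259 CPM (SD, n = 3). Each neighbour in this order overlapped the next, except that the female Egr1cKO libraries, at 0, lay below all others but 1 female Cre control library.

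Per kb of exon, which allows levels to be set between genes, Jph2 was at 1.13, Neb at 0.961 and Ryr1 at 0.733 CPM per kb without Cre. With Cre, Ryr1 was at 0.146, Neb at 0.144 and Jph2 at 0.104 CPM per kb. These are means over 12 libraries, and the order of the 3 genes in either set was not tested.

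The closest relatives of each gene were then examined over the same averaged Cre difference. They were taken by gene family and so were tested, though with earlier results of these data known. edgeR's quasi-likelihood test called 1510 of 21927 genes (6.89%) at an adjusted p under 0.05, with 615 higher and 895 lower with Cre. Nebl, which encodes the shorter nebulin relative nebulette, fell by 0.38 on the log2 scale (SE 0.113, edgeR adjusted p = 0.0415), from 67.2 ± 15.5 to 52.1 ± 12.8 CPM (SD, n = 12 and 12). That call was lost in 16 of 24 fits with 1 library left out, and with the mitochondrial share as a covariate. Nrap, a nebulin-related anchoring protein, was at 0.421 CPM without and 0.246 CPM with Cre and was not called (log2 difference -1.79, SE 0.841, adjusted p = 0.218). Lasp1, a small actin-binding member of the family, was at 103 CPM without and 104 CPM with Cre (adjusted p = 0.969). Its log2 difference was 0.014, and -0.0051 without female wild type replicate 1, not called.

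edgeR called none of the other ryanodine receptors and junctophilins, though Ryr3 and Jph4 passed the threshold under some alternatives. Ryr2, the cardiac and neuronal isoform, was at 26.8 CPM without and 29.0 CPM with Cre (edgeR adjusted p = 0.551). Ryr3, an isoform of wide but low expression, was at 4.50 and 6.64 CPM (log2 difference 0.61, adjusted p = 0.0986). Ryr3 was called higher with the mitochondrial share as covariate (0.71, edgeR adjusted p = 0.0422) and without female Egr1cKO replicate 2 (0.69, adjusted p = 0.0498). Per kb of exon, Ryr2 was the most abundant of the 3 receptors in libraries with Cre, at 1.01 CPM per kb against 0.35 for Ryr3 and 0.146 for Ryr1. Without Cre, Ryr2 was at 0.932, Ryr1 at 0.733 and Ryr3 at 0.237 CPM per kb. Ryr1 was chosen for lower counts with Cre, so nothing is read from its change of place.

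Jph1, the other junctophilin of skeletal muscle, had a log2 difference of -0.10 (edgeR adjusted p = 0.846). Jph3, a neuronal junctophilin, had -0.18 (adjusted p = 0.547), and Jph4, also neuronal, had 0.70 (adjusted p = 0.0721). Jph4 was called higher in DESeq2 (0.69, adjusted p = 0.0454), with no filter on low counts (0.70, edgeR adjusted p = 0.0411) and with the mitochondrial covariate (0.85, adjusted p = 0.0144). It was also called without female Egr1cKO replicate 2 (0.81, edgeR adjusted p = 0.0170) and without male wild type replicate 3 (0.88, adjusted p = 0.0219). Without Cre, Jph3 was at 2.75 CPM per kb of exon, Jph2 at 1.13, Jph1 at 0.775 and Jph4 at 0.597. With Cre, Jph3 was at 2.46, Jph4 at 1.02, Jph1 at 0.720 and Jph2 at 0.104. Jph2 was second of the 4 junctophilins in the mean without Cre and last with Cre. It was chosen for lower counts with Cre, so nothing is read from that change of order.

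**Figure D2:**
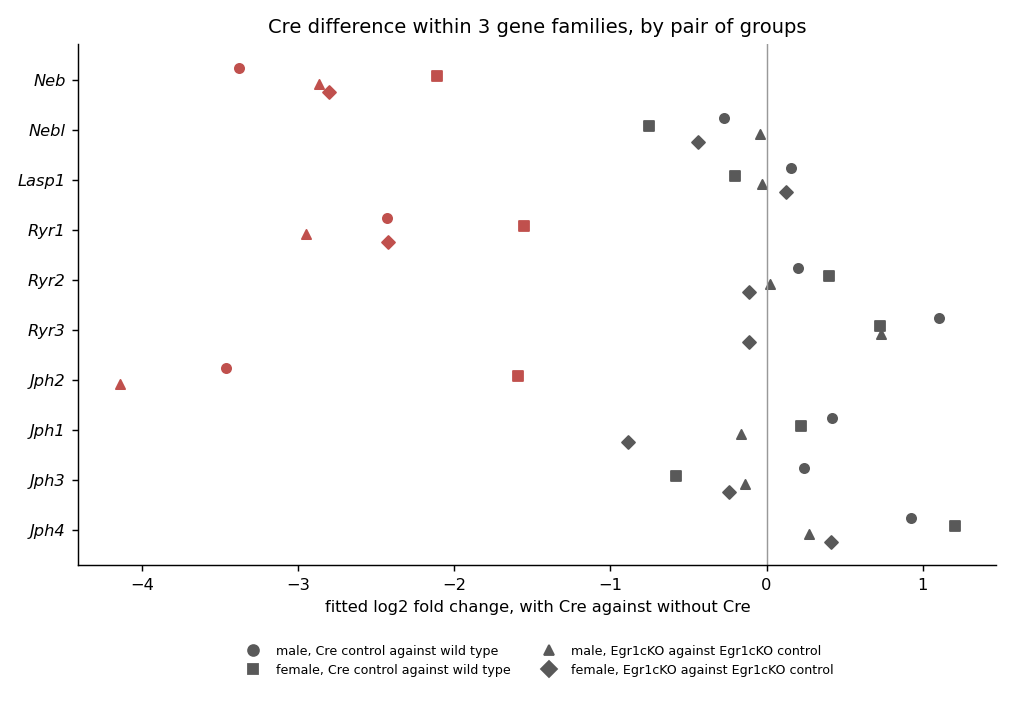
Fitted log2 fold change with Cre against without Cre (horizontal axis) for Neb, Ryr1, Jph2 (red) and 7 relatives (grey), with 1 symbol per pair of groups. The Jph2 value of floxed females is left out because its libraries with Cre had no count; the red symbols lie at -1.55 or below, and the grey ones between -0.89 and 1.21. The red genes were chosen for lower counts with Cre, so the gap between red and grey is not a result. Nrap, with few counts, is not drawn, and its values for the pairs of groups ran from -4.97 to 0.65.

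The thin filament and sarcomere list held 35 genes besides Neb, of which 28 were tested and 7 were under the filter. With Cre, 2 rose, 2 fell and 24 were not called, and the median log2 difference was -0.005 against -0.034 over all genes. Over all genes 6.89% were called, and the list was not tested against that share. Ttn, which encodes the giant sarcomere spring titin, rose by 1.06 on the log2 scale (edgeR adjusted p = 0.00594), from 29.1 to 61.8 CPM. Actn2, the alpha-actinin of the sarcomere's Z-disc, fell by 1.11 (adjusted p = 0.0205), from 40.8 to 19.7 CPM. Without female wild type replicate 1 the Actn2 difference was -0.68 and remained called. Actc1, cardiac alpha-actin, was called higher (log2 3.48, adjusted p = 0.0479) on 12 counts without and 64 with Cre, and that call was lost in 20 of 24 fits with 1 library left out. The mitochondrial covariate also ended it. Both wild type groups had no Actc1 count, so the fitted size depends on the prior count, and it was 1.42 with a prior count of 2. Leaving out the female Egr1cKO and female Egr1cKO control libraries left none of the 4 called, although the differences of Actn2 (-1.08) and Nebl (-0.36) were about as large. That of Ttn was 0.64, and Actc1 gave no value there.

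The excitation-contraction coupling and calcium release list held 45 genes besides Ryr1 and Jph2. Of these, 41 were tested, 2 were under the filter, and Sln and Cav3 had no row. With Cre, 1 rose, 2 fell and 38 were not called, and the median log2 difference was 0.09. These calls were near the share of 6.89% over all genes, so the count is not read as a result about the list. Itpr3, an inositol trisphosphate receptor that releases calcium from the same store in non-muscle cells, fell by 0.86 (edgeR adjusted p = 0.00108), from 27.9 to 15.1 CPM. Homer2, a scaffold protein that binds such receptors, fell by 0.43 (adjusted p = 0.0499), a call lost in 18 of 24 fits with 1 library left out. The mitochondrial covariate also ended that call. Leaving out the female Egr1cKO and female Egr1cKO control libraries ended the call of Homer2, at a difference of -0.46, and left that of Itpr3. Casq1, the calcium-binding protein of the skeletal sarcoplasmic reticulum, was at 1.96 CPM without and 1.88 CPM with Cre (adjusted p = 0.993).

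Of 18 genes for myogenic transcription factors and their partners, Pax3 had no row, and Myod1, Myf5, Myf6 and Myog were under the filter. Beside 6.89% of all genes called, 3 of the 13 tested rose and none fell. Among them were Pax7 (log2 0.79, edgeR adjusted p = 0.00681) and Eya1 (0.39, adjusted p = 0.0207). Both also have known roles in the pituitary, and Pax7 specifies its melanotropes. Pax7 is also among the corticotrope and melanotrope markers below, and its call ended without the female Egr1cKO and female Egr1cKO control libraries. The Eya1 call ended without male Cre control replicate 3. Myod1, the master regulator of the muscle lineage, had no count in 22 of 24 libraries, and Myog, which drives muscle differentiation, had none in 23.

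Markers of skeletal muscle fibres were low, and none was called in the main fit. Of 20, 16 were tested and edgeR called 0 in either direction, against 6.89% of all genes. Their median log2 difference was -0.27, against -0.034 over all genes. An unadjusted p under 0.05 was reached by 2 of them, and DESeq2 also called 0. With no filter on low counts, 1 was called lower, as in some fits with 1 library left out, including female wild type replicate 1. With the mitochondrial covariate, 2 were called higher. The summed level of the 20 was 15.1 to 63.3 CPM without Cre, with a median of 20.5, and 14.7 to 27.6 CPM with Cre, with a median of 21.4. The 63.3 CPM came from female wild type replicate 2, and the next highest was 31.7 CPM. Tnnc2, the fast troponin C, had no count in 23 libraries, Myoz1 in 13, myoglobin (Mb) in 12 and the fast myosin Myh1 in 11. Acta1, skeletal alpha-actin and among the most abundant transcripts of muscle, was at 1.29 CPM without and 1.28 CPM with Cre (adjusted p = 0.904). Muscle creatine kinase, Ckm, was at 0.560 and 0.851 CPM (adjusted p = 0.968). Tnnt3 of the same list was lower in the mean, at 1.03 and 0.398 CPM (log2 -2.01, edgeR adjusted p = 0.160, not called). Its medians were 0.318 CPM without and 0.359 CPM with Cre. The markers named with levels do not stand for the whole list. The summed markers overlapped between libraries with and without Cre. Neb did not, but it was chosen by this contrast, so nothing is read from that difference. Ryr1 and Jph2 overlapped in the unfloxed females. Cardiac markers gave 1 call of 6 tested in edgeR, Actc1, and 0 in DESeq2, and smooth muscle and pericyte markers gave 0 of 8 in edgeR and in DESeq2, with 1 at an unadjusted p under 0.05.

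**Figure D3:**
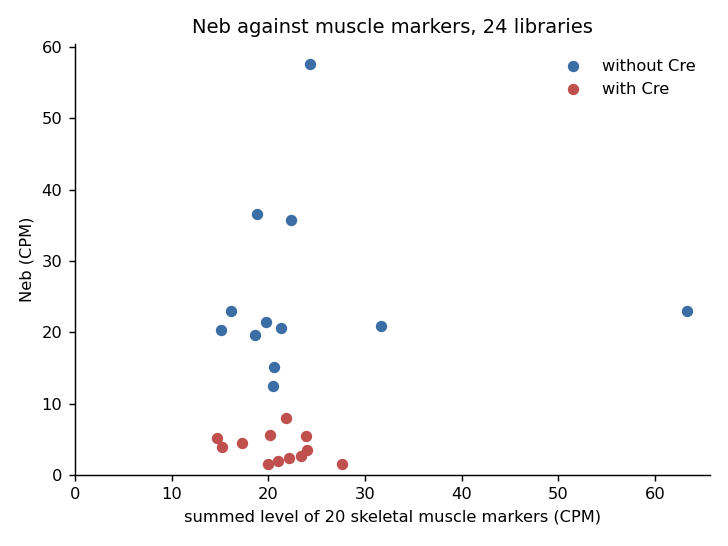
Neb in CPM (vertical axis) against the summed level of 20 skeletal muscle fibre markers in CPM (horizontal axis), 1 point per library, blue without Cre and red with Cre. The marker sums cover 15.1 to 63.3 CPM without Cre and 14.7 to 27.6 CPM with Cre. The 63.3 CPM is female wild type replicate 2, and the next highest is 31.7 CPM. Neb was chosen for lower counts with Cre, so its separation of the 2 sets is not a result.

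Several markers of hormone cells moved with the same contrast, in which 6.89% of all genes were called. The lists below are short and were not tested against that share. Of 6 lactotrope and somatotrope markers, edgeR called Prl, Gh, Pou1f1 and Ghrhr lower and Drd2 higher, and DESeq2 called all 6. Their summed level was 168760 to 414263 CPM without Cre and 45292 to 158852 CPM with Cre, without overlap. The sum is weighted by its most abundant genes, with Prl alone at up to 151155 CPM, so it does not speak for each of the 6. Prl had a log2 difference of -2.17 (SE 0.187, edgeR adjusted p = 8.9e-08). All 4 corticotrope and melanotrope markers rose, and their summed level was 7488 to 48755 CPM without and 30646 to 226853 CPM with Cre. Of 3 thyrotrope markers 2 rose (summed 240 to 591 against 254 to 1203 CPM), and of 4 gonadotrope markers 1 rose (965 to 4693 against 1099 to 6843 CPM). Stem and folliculostellate markers rose in 3 of 4 (94.2 to 160 against 114 to 219 CPM), as did posterior lobe markers in 3 of 4 (49.5 to 201 against 105 to 376 CPM). Leukocyte markers rose in 1 of 4 (43.2 to 79.8 against 62.3 to 111 CPM), and endothelial markers in 1 of 4 (86.4 to 178 against 89.2 to 190 CPM). The part of these shifts in the levels of Neb, Ryr1 and Jph2 was not tested.

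The remaining comparisons did not enter the choice of the genes and were tested. The libraries carry no label that ties them to separate animals beyond their numbers, so p-values measure the spread between these samples only. The first question was whether the genes differed between the sexes in libraries without Cre, where edgeR called 1.50% of all genes. None of the 3 was called. Neb had a female minus male difference of 0.59 on the log2 scale (SE 0.206, edgeR adjusted p = 0.186). Its 6 female libraries ran from 15.1 to 57.6 CPM with a median of 29.4, and its 6 male libraries from 12.5 to 23.0 CPM with a median of 20.5. The high female values were the 3 Egr1cKO controls, and without the floxed female groups the difference was -0.07. The difference was -0.11 for Ryr1 (SE 0.331, adjusted p = 0.949) and -0.95 for Jph2 (SE 0.616, adjusted p = 0.579). Without female wild type replicate 1 the differences were -0.61 for Ryr1 and -1.35 for Jph2, neither called.

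In libraries with Cre, Neb was higher in females than in males by 1.26 on the log2 scale (SE 0.222, edgeR adjusted p = 0.000339). All 6 female libraries, at 3.93 to 8.0 CPM, were above all 6 male libraries, at 1.50 to 3.51 CPM. The background was large, since 27.9% of all genes were called in this comparison. The call held in each of 24 fits with 1 library left out, with adjusted p between 4.15e-05 and 0.00174. When the mitochondrial share was added as a covariate, the difference was 1.10 and was no longer called (adjusted p = 0.0632). That share did not overlap between the sexes in these libraries, so it and sex cannot be told apart within them.

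Prl, the lactotrope hormone, also separated the sexes with Cre, at 20819 to 75588 CPM in females and 3046 to 7057 CPM in males. The lactotrope and somatotrope marker sum overlapped, at 66338 to 158852 CPM in females and 45292 to 129147 CPM in males. Skeletal muscle fibre markers were at 14.7 to 23.9 CPM in females and 19.9 to 27.6 CPM in males. The part of these in the Neb difference was not tested.

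Ryr1 with Cre had a female minus male difference of 0.59 and was not called (SE 0.35, edgeR adjusted p = 0.214), with ranges of 2.37 to 5.46 and 1.38 to 5.31 CPM. With that share as a covariate its difference was -0.50. Jph2 with Cre was not called either, with a fitted female minus male difference of -2.67 (SE 1.04, edgeR adjusted p = 0.0589). Its values ran from 0 to 1.37 CPM in females and from 0.0917 to 0.901 CPM in males, so the ranges overlapped. Its adjusted p was 0.0434 without female wild type replicate 3, 0.0468 without female wild type replicate 1, and just under 0.05 without male Egr1cKO control replicate 1. It was 0.00769 with no filter on low counts and 0.0280 in DESeq2. The fitted size depends on the 3 female Egr1cKO libraries with no count, and without the floxed female groups the difference was 0.68.

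The test of whether the Cre difference itself varied with sex called 2.06% of all genes and none of the 3. The interaction, positive where females lost less, was 0.67 for Neb (SE 0.300, edgeR adjusted p = 0.193), 0.70 for Ryr1 (SE 0.482, adjusted p = 0.407) and -1.72 for Jph2 (SE 1.12, adjusted p = 0.385). The sign for Jph2 was not stable, at 0.075 with a prior count of 2 and 1.85 without the floxed female groups. Without female wild type replicate 1 the Ryr1 value was 1.20 and was called (edgeR adjusted p = 0.0298). That library had 22.5 CPM of Ryr1 and a mitochondrial share of 10.1%, and the other two of its group had 4.71 and 6.49 CPM with shares of 2.14% and 2.7%. Across all 24 libraries, the deviations of Ryr1 from its group means had r = 0.62 with those of the mitochondrial share (rho 0.34). For Neb r was 0.19 and for Jph2 0.27. The SD of the mitochondrial share was 4.42 in the female wild type group, against 0.524 to 1.76 in the other groups. The r values thus lean on that group, and they were not computed without its replicate 1. These are descriptions, the libraries share their groups, and no p is attached.

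**Figure D4:**
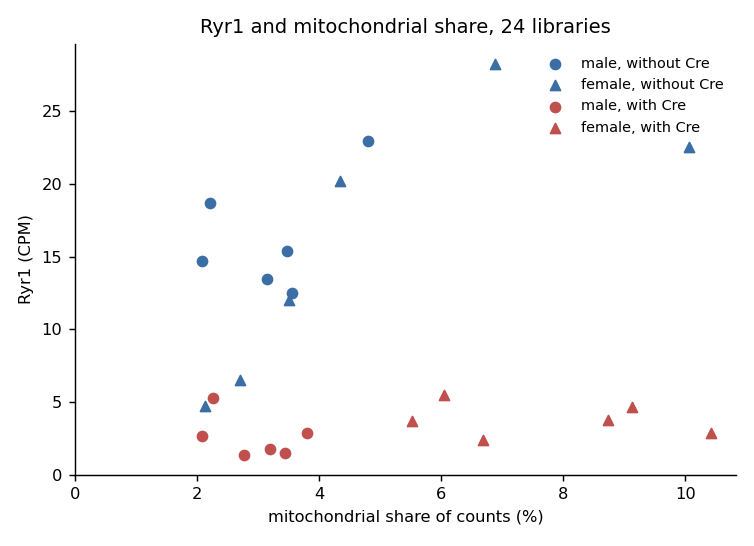
Ryr1 in CPM (vertical axis) against the mitochondrial share of counts in percent (horizontal axis) in 24 libraries; circles are males, triangles females, blue without Cre and red with Cre. The blue triangle at 10.1% is female wild type replicate 1, at 22.5 CPM.

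Floxed and unfloxed libraries carry numbers of 2 series, so genotype and series cannot be told apart in the comparisons between them. Without Cre, edgeR called 0% of genes (1573 had an unadjusted p under 0.05, and DESeq2 called 2). Floxed minus unfloxed was 0.45 for Neb (SE 0.205, edgeR adjusted p = 0.684), 0.30 for Ryr1 (SE 0.332, adjusted p = 0.904) and 0.37 for Jph2 (SE 0.612, adjusted p = 0.959). Without female wild type replicate 1 the values were 0.80 for Ryr1 and 0.77 for Jph2, not called. In females, Neb was at 35.8 to 57.6 CPM with floxed Egr1 and 15.1 to 23.0 CPM without it. In males these ranges overlapped, at 12.5 to 20.9 and 19.7 to 23.0 CPM. A test of whether that difference varied with sex was not run.

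With Cre, where the comparison is Egr1cKO against Cre control, edgeR again called 0% of genes (1122 at an unadjusted p under 0.05, and 12 in DESeq2). The difference was 0.36 for Neb (SE 0.220, edgeR adjusted p = 1.0), -0.39 for Ryr1 (SE 0.35, adjusted p = 1.0) and -3.89 for Jph2 (SE 1.01, adjusted p = 0.717). The Jph2 ranges overlapped in males, at 0.0917 to 0.607 and 0.345 to 0.901 CPM. In females the Egr1cKO libraries had no count and 1 of 3 Cre control libraries had none. With no filter on low counts the Jph2 difference of -3.88 was called (adjusted p = 0.000677), and without the floxed female groups it was -0.53.

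The test of whether the Cre difference depended on floxed Egr1 called 0% of genes in edgeR (1125 at an unadjusted p under 0.05, and 3 in DESeq2). The interaction was -0.09 for Neb (SE 0.303, edgeR adjusted p = 1.0), -0.70 for Ryr1 (SE 0.482, adjusted p = 0.935) and -4.26 for Jph2 (SE 1.20, adjusted p = 0.925). Without female wild type replicate 1 the Ryr1 value was -1.19, not called. With no filter on low counts the Jph2 value was -4.27 and was called (adjusted p = 0.00513). Without the floxed female groups it was -0.68. A p that misses the threshold does not show that the Cre difference was equal with and without floxed Egr1.

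**Figure D5:**
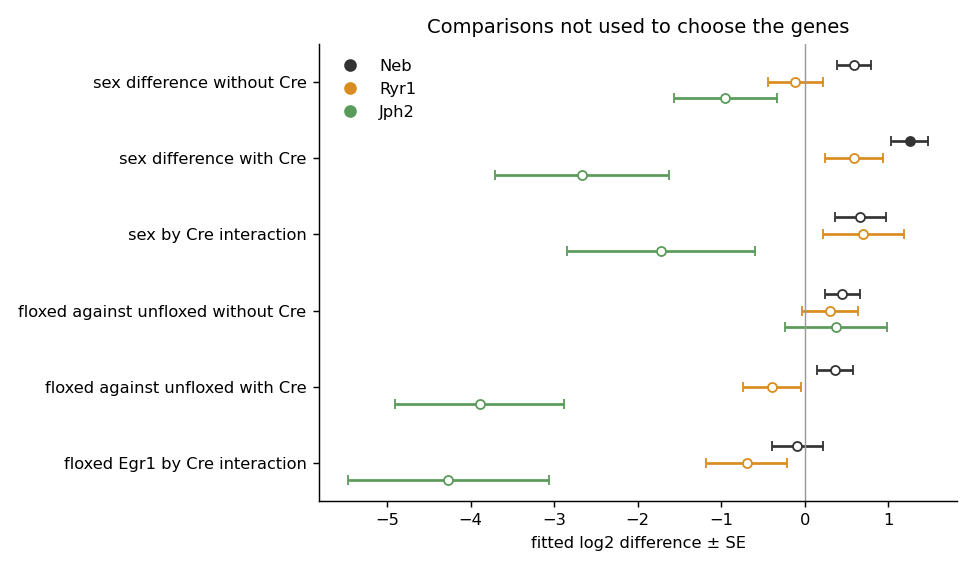
Fitted log2 difference ± SE (horizontal axis) of Neb, Ryr1 and Jph2 in the 6 comparisons that were not used to choose them; a filled point has an edgeR adjusted p under 0.05. The single filled point is Neb, higher in females than in males with Cre, and Jph2 has the widest errors.

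Within libraries of 1 Cre state, 12 relations were computed among the 3 genes and with Prl on log2 CPM, each over 12 libraries. Neb and Ryr1 had r = 0.41 without Cre (permutation p = 0.179, adjusted 0.358, rho 0.18, permutation p = 0.573, adjusted 0.760), and r was 0.29 without the 2 libraries farthest from the median of Neb. With Cre, Neb and Ryr1 had r = 0.42 (permutation p = 0.170, adjusted 0.358, rho 0.38, permutation p = 0.220, adjusted 0.532), and 0.67 without the 2 farthest libraries. Adjusted p for r was 0.341 or more in 11 of the 12. The other relation, Neb with Prl in libraries with Cre, is not given over both sexes because neither gene overlapped between them. Within the 6 male libraries r was 0.47 (exact permutation p = 0.343, adjusted 0.433, rho 0.54, exact permutation p = 0.297), and -0.36 without the 2 farthest. Within the 6 female libraries it was -0.34 (exact permutation p = 0.433, adjusted 0.433, rho -0.66, exact permutation p = 0.175), and -0.73 without the 2 farthest.

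As deviations from group means over all 24 libraries, Neb had r = 0.19 with Ryr1 and 0.38 with Jph2, and Ryr1 had -0.10 with Jph2. The genes most alike were taken from 13987 with a mean of at least 1 CPM, and the highest of so many values are high by selection. For Neb the closest 5 were Casq1 (r = 0.82), Minar2 (0.74), Mrpl24 (0.71), Dynlrb2 (0.71) and Ofd1 (0.70). Casq1 is also among the skeletal muscle fibre markers above. For Ryr1 they were Myt1 (0.91), Abcd4 (0.91), Plekha5 (0.90), Cers4 (0.90) and Pced1a (0.89). For Jph2 they were Fdxacb1 (0.83), Lax1 (0.81), Ndor1 (0.79), Traip (0.78) and Inmt (0.77). By Spearman's rho, 2 of the 5 for Neb, 3 for Ryr1 and 1 for Jph2 were again among the first 5.

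Over the 8 group means, which hold the contrast used for the choice, the closest to Neb were Entpd3, Il31ra, Parvb, Taf1 and Platr14 (r from 0.98 to 0.99). The closest to Ryr1 were Plekha7, Parp10, Myo15, Espnl and Alpk3 (r from 0.97 to 0.99), and those to Jph2 were Abcc8, Sdk2, Uba7, Sec14l4 and Adcy7 (r from 0.96 to 0.99). With 8 points and 13987 genes such values describe likeness in pattern alone.

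edgeR called none of the flanking coding genes. Rif1 and Arl5a flank Neb, and their averaged log2 differences with Cre were 0.04 and -0.05 (edgeR adjusted p = 0.876 and 0.850). Map4k1, whose annotated end lies 0.065 kb from that of Ryr1, had -0.50 (adjusted p = 0.344). Its difference was -0.16 without female wild type replicate 1, and -0.73 and called with the mitochondrial covariate (edgeR adjusted p = 0.0413). Rasgrp4 on the other side had -0.41 (edgeR adjusted p = 0.725). Tox2 and Oser1 flank Jph2 and had 0.09 and -0.15 (adjusted p = 0.714 and 0.475). Without female wild type replicate 1, Rif1 was at -0.0043, Arl5a at -0.10 and Tox2 at 0.16, none of them called. The libraries are not stranded, so reads of overlapping antisense genes cannot be told apart from those of the host. The antisense genes Gm13522 in Neb and Gm26604 and Gm38979 in Ryr1 were counted at 30, 55 and 17 reads in all, against 7412 for Neb and 4839 for Ryr1.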

How the data were processed

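The data were raw counts per Ensembl gene, which the authors deposited as 1 table of whole numbers with no normalization for 24 pituitary libraries. Per the submitters' processing notes, the aligner was STAR 2.7.9 and the genome build GRCm38. No source used here names the counting tool or its annotation, and 35077 identifiers matched GENCODE M21. Per the labels' protocols, libraries were made from polyA RNA and were not stranded. Genes were filtered with filterByExpr, scaled by TMM and tested with edgeR 4.0.16 in R 4.3.3 (glmQLFit robust, 1 mean per group, 16 residual degrees of freedom). P-values were adjusted over 21927 genes by Benjamini-Hochberg at 0.05. The median biological coefficient of variation was 0.337. Fitted fold changes used a prior count of 0.125. The fit was also run on simulated counts, with changes planted only in genes with a mean of at least 1 CPM. Its outcome is not reported here, and nothing is read from it. Correlations used 100000 resamples in scipy 1.17.1, or all 720 orders for 6 libraries. The genes and lists were chosen with earlier results of these data known. Named genes were the 3 genes, their families, Prl, flanking coding genes, up to 4 called genes per list by smallest p (some of which are not reported here), and the 5 most alike. Further named marker genes and Casq1 were chosen after their values were seen. Alternatives covered scaling, DESeq2 1.42.0, filters, a mitochondrial covariate, the prior count, left-out groups and single libraries.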

Additional observations from a re-analysis of the deposited data

Results flagged for a closer look

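The Cre difference of Prl, named beside the 3 genes, differed between the sexes. The sex by Cre interaction was 1.72 on the log2 scale (SE 0.362, edgeR adjusted p = 0.0188), meaning that Prl was lowered less in females. The corresponding interactions of Neb, Ryr1 and Jph2 were not called. Groups of 3 libraries were not tested for single outlying values.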

How the results depend on the processing

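The Neb sex difference with Cre kept its direction in every alternative run and its call in all but 1, the mitochondrial covariate, where it was 1.10 (edgeR adjusted p = 0.0632). With that covariate Ryr1 in the same comparison was -0.50. Jph1, Jph3 and Arl5a over the averaged Cre difference were 0.032, 0.0035 and 0.10. The covariate ended the calls of Nebl (-0.25, edgeR adjusted p = 0.0870), Homer2 (-0.32, adjusted p = 0.0796) and Actc1 (3.37, adjusted p = 0.0656). List counts became 5 higher and 1 lower for thin filament genes, 9 higher for calcium release genes and 2 higher for skeletal muscle markers. With no filter, Jph2 passed the threshold for sex with Cre (-2.68), floxed with Cre (-3.88) and floxed by Cre (-4.27), 3 calcium release genes were higher and 1 skeletal muscle marker was lower. A mean of at least 1 CPM left 1 thin filament gene higher. A prior count of 2 moved the Jph2 sex by Cre value to 0.075 and the averaged Cre difference of Actc1 from 3.48 to 1.42. DESeq2 called Jph2 for sex with Cre (-2.32), put Lasp1 at -0.0013 and called 2 calcium release genes higher, and its size factors in edgeR also put Lasp1 at -0.0013. They moved the averaged Cre median from -0.034 to -0.050 and the calls from 615 higher and 895 lower to 582 and 973.

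Without the female Egr1cKO and Egr1cKO control libraries, signs turned for Neb sex without Cre (-0.073), Jph2 sex with Cre (0.68), Jph2 sex by Cre (1.85), Neb and Ryr1 floxed without Cre (-0.22 and -0.24), Neb floxed by Cre (0.50), Lasp1 (-0.032), Jph1 (0.15) and Tox2 (-0.082). List counts then were 0 higher and 0 lower for thin filament and 0 higher and 1 lower for calcium release genes. As deviations from group means, correlations turned for Neb and Jph2 (0.11 without, 0.58 with Cre) and for Jph2 and Prl with Cre (0.10). The cause was not tested.

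With 1 library left out, Jph2 sex with Cre ran from -2.91 to -2.39, Jph2 floxed without Cre from -0.070 to 0.77, Neb floxed by Cre from -0.25 to 0.046, Ryr1 sex without Cre from -0.61 to 0.065 and Ryr1 sex by Cre from 0.53 to 1.20. Lasp1 ran from -0.038 to 0.053 and Rif1 from -0.0099 to 0.067. Thin filament counts ran from 1 to 3 higher and from 1 to 3 lower, calcium release counts from 1 to 3 higher and from 1 to 3 lower, and skeletal muscle markers from 0 to 1 lower. No paired analysis was possible because the labels give the groups no shared replicate numbers. Low counts limit Jph2 most.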
